A study of Drosophila melanogaster with 12 samples.

Results

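The comparison was between *ph505* tumours, which grow from cells that lack Polyhomeotic, and wild-type transplanted discs. Every sample labelled as a tumour or as a control was taken, which gave 9 of the 12 samples of the series, and the 3 samples of metamorphed cells were left out. The 6 tumours carried *ph505*, an allele in which neither *ph-p* nor *ph-d* works, in GFP-marked MARCM clones. The allele sat on an *FRT19A* chromosome, an *ey-flp* recombinase made the clones, and loss of *tub-Gal80* let an *act>STOP>Gal4* driver switch on *UAS-GFP*. The *ey-flp* recombinase also acts in leg and genital discs. Tumours had been moved into the abdomen of new adult hosts every week and were sampled after 4, 8 or 14 rounds (2 samples at each age, called 4-, 8- and 14-week tumours). The 3 controls were wild-type eye discs of late 3rd instar larvae that had spent 1 day in an adult host. Genotype and time in the host therefore cannot be told apart in this comparison. RNA was collected independently for each sample according to the methods of the study, but whether the ages came from one line of tumours is not given, so p-values measure the spread between these samples. *Hox* genes, *chinmo* and the genes of the ecdysone response were set aside, and what follows describes the other gene families and pathways.

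Polyhomeotic is a core subunit of Polycomb repressive complex 1, which keeps developmental regulators silent in cells that should not use them. In the eye-antennal disc, an epithelium that gives rise to the eye, the antenna and the head capsule, the retinal determination genes set eye identity, proneural genes then start neurons, and signalling through Notch, JAK/STAT, EGFR, Hedgehog, Wnt and Dpp patterns and grows the tissue. Loss of *ph* in this disc is known for overgrowth, and genes of the Notch and JAK/STAT pathways are among the known Polycomb targets there.

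Reads on genes came to 16619078 to 24144498 per tumour and to 2072498, 26137216 and 17426016 in Controls 1, 2 and 3. A single read was worth 0.392 CPM in Control 1 and at most 0.0677 CPM in every other library. CPM were taken per scaled library size, the total reads times a factor. That factor was 0.611 in the second 14-week tumour, 0.965 to 1.149 in the other tumours and 1.2 to 1.239 in controls. A lower factor raises CPM. The first principal component separated tumours from controls and held 61.2% of the variance, and the second 14-week tumour stood apart on the next one (11.8%). In that tumour a single gene without a symbol, FBgn0085364, took 13.75% of reads. Levels also followed transcript length. Against the mean of the 9 libraries, transcripts of 700 nt were at 1.21 (log2) in the second 14-week tumour and between -0.35 and 0.57 in the other tumours, against -0.62, -0.57 and -0.50 in Controls 1 to 3, and transcripts of 5000 nt were at -0.70 to 0.10 in tumours, against 0.48 to 0.68 in controls. Counts are therefore also given with each library's length trend removed where that moved a list's larger count by over 1.5 times or turned its direction. Of the 18 genes that were under 0.5 CPM in Controls 2 and 3 and at 10 CPM or more in every tumour, all 18 had reads in Control 1, at a median of 4.33% of the tumour mean, and the source of these reads was not tested. Among the marker lists of gut, fat body, haemocytes, egg chamber and muscle, the muscle list alone held a gene called higher in tumours, but quantile normalization gave 3 higher and 0 lower in the egg chamber list, against 0 higher and 3 lower of 10 without it, and left 0 of the 7 gut genes, 2 of the 4 haemocyte genes and 3 of the 7 sarcomere genes lower. Egg chamber genes summed to 10 to 26.4 CPM in tumours, against 119, 30 and 9.47 CPM in Controls 1, 2 and 3. Summed gut enzyme levels were 0.0404 to 2.37 CPM in tumours, against 22.3, 143 and 22.4 CPM in Controls 1, 2 and 3. Of these genes 31 of 32 stayed under 1 CPM in every tumour. The 7 gut genes lower became 2 to 4 without Control 1, Control 2, either 4-week tumour, either 8-week tumour or the second 14-week tumour. Fat body and yolk genes summed to 33.0 to 91.6 CPM in tumours, against 226, 1046 and 248 CPM in Controls 1, 2 and 3 (0 higher and 6 lower of 11 tested). Control 2 thus set the upper end of both the gut and the fat body sums. Haemocyte markers summed to 61.0 to 133 CPM in tumours, against 231 to 306 CPM in controls (0 higher and 4 lower of 12). A large part of the control sums came from *Ance*, at 96.8, 67.9 and 129 CPM in controls and at most 0.406 CPM in tumours. The marker *lz* is also in the photoreceptor list, and *Hml*, *Sr-CI*, *NimB5*, *PPO2* and *Pxn* were not called. Sarcomere genes summed to 637 to 1696 CPM in tumours, against 613 to 696 CPM in controls (1 higher and 7 lower of 15). The gene that rose, *Mlc2*, was at 148 to 1036 CPM in tumours, against 26.3, 10.4 and 6.94 CPM in controls. Of the 21 sarcomere genes 12 stayed under 1 CPM in every tumour. In bulk RNA, fewer cells of a type and less RNA per cell cannot be told apart.

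Of 9345 genes tested, 1455 (15.6%) were higher and 2255 (24.1%) lower in tumours (limma on log2(CPM + 1), mean of the 3 ages against control, adjusted p below 0.05). The median change of all genes was -0.19 on the log2 scale. The count of increases rested on single libraries and on the scaling, with 719 without Control 1, 849 without Control 3, 963 without Control 2 or the first 8-week tumour, and 860 with CPM of total reads. All 6 tumours lay above all 3 controls for 13.2% of the genes tested and below them for 20.1%. Taken age by age, 14.4% of genes were higher and 23.9% lower in 4-week tumours, 2.86% and 11.1% in 8-week tumours, and 12.4% and 16.9% in 14-week tumours, and 190 genes were higher and 922 lower at every age. No gene passed the test of a difference among the ages after adjustment (limma F-test), and 1228 did at an unadjusted p below 0.05. Among the called genes, 243 had no read in any tumour and 8 had no read in any control. The share of calls that were increases was 39.2%, and it was 46.7% with the length trend removed, 55.5% when libraries were quantile-normalized and 25.0% when CPM came from total reads, with a median change of all genes of 0.04, 0.12 and -0.47.

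The 15 largest increases included 9 transcription factor genes, and the 15 largest decreases included genes of the eye, of neurons and of cuticle. Outside the *Hox* and ecdysone genes, *tin*, the NK homeobox gene that specifies heart mesoderm, was at 39.3 CPM in the lowest tumour, 100 CPM in the median and 118 CPM in the highest, against 6.27, 0.0309 and 0.526 CPM in the controls, a log2 fold change of 5.28 ± 0.55 (SE; adjusted p = 2.4e-05). *eve*, a homeobox gene of the pair-rule class, was at 52.7, 78.7 and 225 CPM (lowest, median and highest tumour), against 14.9, 0.124 and 0 CPM in the controls (log2 fold change 5.12 ± 0.77, adjusted p = 3.8e-04). In both genes Control 1 was the highest control. Both sets of 15 were picked among genes without overlap between tumours and controls, so that separation is not a result. The 15 largest increases further held the forkhead genes *fd102C* (5.19), *croc* (4.72) and *fkh* (4.44), the Sox genes *Sox100B* (4.63) and *Sox15* (4.58), the Doublesex-related *dmrt99B* (4.88), the homeobox gene *unpg* (4.40), the ligand gene *Wnt4* (4.93), the piRNA pathway gene *mael* (4.56) and the myosin light chain gene *Mlc2* (4.33). They also held *lncRNA:CR44295* (4.66), *CG15756* (5.39) and *CG15269* (4.35).

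Among the 15 largest decreases, *lncRNA:CR33938* was at 0, 0.448 and 2.85 CPM in the lowest, median and highest tumour, against 706, 1081 and 863 CPM in the controls (log2 fold change -9.06 ± 0.43, adjusted p = 4.2e-07). It lies on chromosome 3R at 6699560 to 6700164 (BDGP6, minus strand). *obst-A*, which encodes a chitin-binding protein, was at 0.0404, 0.602 and 1.08 CPM in tumours, against 421, 400 and 1230 CPM in controls (-8.62 ± 0.48, adjusted p = 4.2e-07). Every tumour was at 2.85 CPM or less in both genes, and every control was at about 400 CPM or more. The others were the eye specification genes *eya* (-8.40) and *toy* (-7.50), *rst* (-7.80), an immunoglobulin adhesion gene that acts in sorting cells of the pupal eye, *ru* (-7.74), a rhomboid protease gene, *scrt* (-7.94), a zinc finger gene of neurons, *Ank2* (-7.53), an ankyrin of axons, *Argk1* (-7.64), arginine kinase, the cuticle genes *Cpr51A* (-7.78) and *Cpr100A* (-7.56), and *CG12268* (-8.41), *CG31676* (-8.12), *CG34377* (-7.82) and *CG13928* (-7.77). None of these 30 genes lost its call when any one library was left out.

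**Figure D1:**
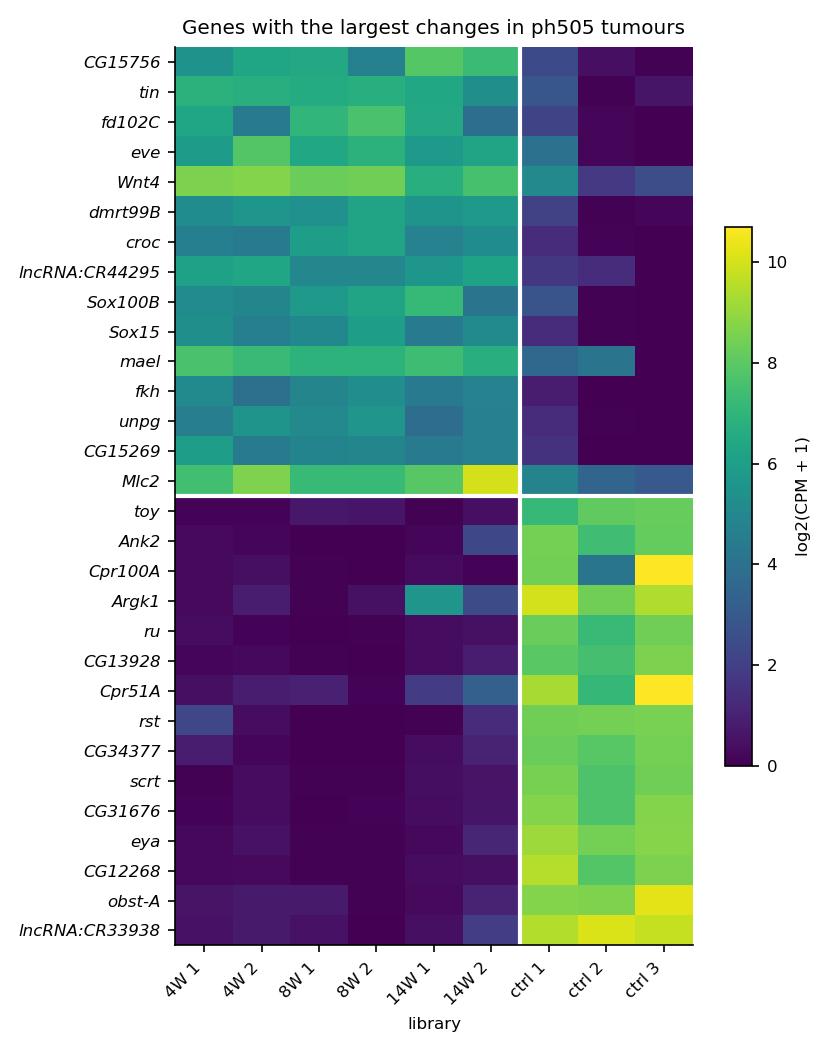
Levels of the 15 most increased and the 15 most decreased genes, as log2(CPM + 1), with 1 column per library and the tumours left of the controls. Genes were picked among those in which the tumours and the controls did not overlap. Several of the upper genes had no read in Control 3 and low levels in Control 1, and most of the lower genes were near 0 in each tumour.

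The gene lists moved in different directions. Lists of the ribosome, the respiratory chain and the proteasome held mainly increases among their calls, lists of eye, neuron and cuticle genes mainly decreases, and several transcription factor families held both. Each list is given below as the number of its tested members called in each direction, to be read against the 15.6% and 24.1% of all tested genes. In 20 of the 58 lists 1 to 3 listed members could not be matched to the table and were not analysed here.

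**Figure D2:**
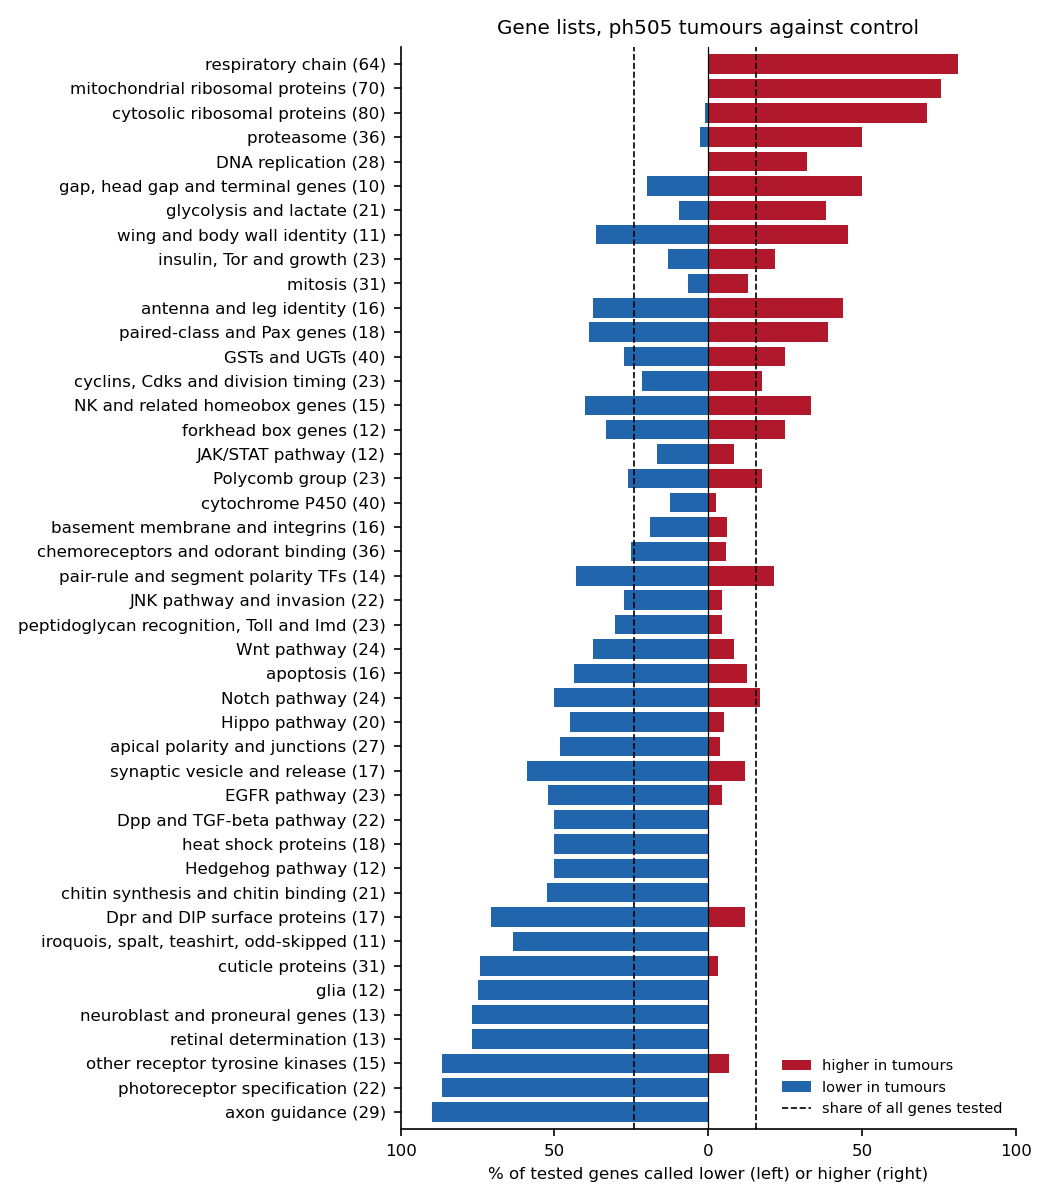
Share of the tested members of each gene list that were called lower (bars to the left) or higher (bars to the right) in tumours against controls (limma, adjusted p below 0.05), with the number tested. Dashed lines mark the share of all genes tested, 24.1% lower and 15.6% higher.

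Regulators of the trunk and of other appendages changed in both directions. Of 10 gap, head gap and terminal genes 5 were higher and 2 lower, with a median log2 change of 1.35. *cad*, the posterior homeobox gene, was at 89.3, 113 and 150 CPM in the lowest, median and highest tumour, against 5.49, 35.9 and 0.0478 CPM in controls (4.17 ± 0.80, adjusted p = 0.0019). *btd*, a zinc finger gene of head segments, was at 19.2, 32.1 and 83.2 CPM in tumours, against 4.70, 4.02 and 0.0957 CPM in controls (3.55 ± 0.53, adjusted p = 3.5e-04). All tumours exceeded all controls for both. *Kr*, the zinc finger gap gene, also rose (2.86), with its lowest tumour at 3.32 CPM and Control 1 at 3.92 CPM, while *ems*, a head gap gene, fell by 2.96. In the list of pair-rule and segment polarity transcription factors 3 of 14 were higher, *eve*, *gsb* (2.60) and *prd* (2.07), and 6 were lower, with the *prd* call lost when the tumours formed 1 group (adjusted p = 0.091). The decreases were led by the odd-skipped relative *sob* (-5.37) and the forkhead gene *slp1* (-3.82).

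Several genes of the wing and of the ventral appendages rose together with losses in the same lists. *vg*, the wing selector, was at 25.8, 39.0 and 40.6 CPM in the lowest, median and highest tumour, against 3.14, 0.0618 and 0.574 CPM in controls (4.29 ± 0.47, adjusted p = 3.1e-05). *nub*, a POU gene of the wing pouch, was at 15.5, 20.0 and 38.9 CPM in tumours, against 0.392, 3.71 and 0 CPM in controls (3.66 ± 0.53, adjusted p = 2.7e-04). In *vg* the SD among tumours was 5.59 CPM around a mean of 36.7 CPM, and the second 4-week tumour, at 25.8 CPM, lay apart from the others (35.8 to 40.6 CPM). Over the wing and body wall list, 5 of 11 genes were higher and 4 lower, the losses including the iroquois gene *ara* (-4.18) and *tsh* (-3.59), and 4 were higher and 4 lower with CPM of total reads. *Sp1*, a zinc finger gene of leg growth, was at 67.6, 89.1 and 191 CPM in tumours, against 5.10, 9.61 and 1.96 CPM in controls (4.08 ± 0.42, adjusted p = 2.4e-05). *disco* (3.49), a zinc finger gene of ventral appendages, and *Lim1* (2.12), a LIM-homeobox gene of the antenna and leg, were higher too. *Dll*, a homeobox gene and key member of the antenna and leg list, was not called. It was at 11.7, 31.0 and 50.9 CPM in tumours, against 13.3, 50.6 and 12.7 CPM in controls (0.48 ± 0.50, adjusted p = 0.46). The antenna and leg list had 7 of 16 genes higher and 6 lower, with *B-H1* (-5.66), a homeobox gene of distal leg and of photoreceptors, and *rn* (-4.86), a zinc finger gene of the tarsus, among the losses. With CPM of total reads the counts in that list were 4 higher and 6 lower, with the replicate block 4 and 5, and without the second 8-week tumour 5 and 6.

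Other transcription factor families were split. Of 18 paired-class and Pax genes 7 were higher and 7 lower. The increases included the mesodermal Pax gene *Poxm* (3.34) and *Gsc* (2.15), at 1.02 to 7.48 CPM in tumours, against 0.392, 0 and 0 CPM in controls. NK and related homeobox genes had 5 higher and 6 lower of 15, with *tin*, *unpg* and *lbl* (2.79), a gene of muscle and heart precursors, at the upper end, and the counts were 6 higher and 4 lower after quantile normalization, 7 and 5 with the length trend removed, and 5 and 4 without Control 1 or Control 3. Forkhead genes had 3 higher and 4 lower of 12, Sox genes 2 higher and 1 lower of 7, POU genes 2 higher (*nub* and *vvl*, 2.32) and 1 lower (*pdm3*, -2.80) of 4, T-box genes 1 and 1 of 5, and GATA genes 1 and 2 of 4. The T-box increase was lost without any one control or the second 8-week tumour, the GATA increase without Control 2, Control 3, the first 4-week tumour or either 8-week tumour, and Sox genes had 2 lower without the first 14-week or the second 8-week tumour. For the forkhead genes quantile normalization gave 5 higher and 4 lower, and removal of the length trend gave 5 and 3. That removal gave 3 higher and none lower for Sox genes and 1 higher and none lower for GATA genes. All 4 LIM-homeobox genes tested were called, with *tup* (1.65) and *Lim1* higher. *Lim3*, a LIM-homeobox gene of neurons, had no read in any tumour, against 8.62, 20.4 and 25.0 CPM in controls, and was at least 929-fold lower (3 reads over all tumours taken as the floor). The iroquois, spalt, teashirt and odd-skipped genes had no increase and 7 decreases among 11 tested, and the median change was -1.13.

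Genes of eye identity were low in the tumours. Of 13 retinal determination genes 10 were lower and none higher, with a median log2 change of -4.44, and of 22 photoreceptor specification genes 19 were lower and none higher, with a median of -3.85. *so*, the homeobox partner of *eya*, was at 0, 2.45 and 3.60 CPM in the lowest, median and highest tumour, against 58.4, 61.6 and 59.8 CPM in controls (-4.45 ± 0.43, adjusted p = 1.4e-05). *ey*, a Pax6 gene, was at 0.401, 4.26 and 11.3 CPM in tumours, against 82.3, 110 and 68.6 CPM in controls (-4.44 ± 0.76, adjusted p = 8.9e-04). The residual *ey* level varied widely among tumours but stayed below every control. *danr*, which acts with *ey* in the early eye field, fell by 6.88 and *tio*, the relative of *tsh*, by 4.63. *Optix*, a homeobox gene of the eye field, did not follow them, at 58.1, 70.4 and 334 CPM in tumours, against 32.9, 55.1 and 41.7 CPM in controls (1.19 ± 0.45, adjusted p = 0.052). It passed the test without the first 4-week or the first 14-week tumour (adjusted p = 0.0019 to 0.033) and with the length trend removed (1.68, adjusted p = 0.022).

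Downstream of eye identity, *ato*, the proneural gene of the founding R8 photoreceptor, was at 0 CPM in the median tumour and 0.0409 CPM in the highest, against 10.6, 10.8 and 19.6 CPM in controls (-3.81 ± 0.38, adjusted p = 1.8e-05). *gl*, a zinc finger gene required in photoreceptors, was at 0.0409, 0.202 and 2.45 CPM in tumours, against 128, 170 and 222 CPM in controls (-6.84 ± 0.46, adjusted p = 1.5e-06). *sev*, the receptor tyrosine kinase of R7, fell by 5.59 and *phyl*, which promotes R7 fate, by 6.16. With the length trend removed 17 of the 22 photoreceptor genes were lower and 1 was higher.

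Neuronal and glial families followed. Neuroblast and proneural genes had 10 of 13 lower, 6 with the length trend removed, and none higher. *sc*, a proneural gene of sensory bristles, had no read in any tumour, against 20.0, 9.82 and 58.8 CPM in controls, at least 1233-fold lower. *nerfin-1*, a zinc finger gene of early neurons, was at 0, 0.0627 and 0.677 CPM in tumours, against 129, 150 and 111 CPM in controls (-6.83 ± 0.40, adjusted p = 6.2e-07). Of 29 axon guidance genes 26 were lower and none higher, with a median change of -1.76 (-1.91 with genes that had no read in any tumour at their bound). *trn*, a leucine-rich repeat gene, was at 0.0557, 0.496 and 10.7 CPM in tumours, against 198, 268 and 196 CPM in controls (-6.57 ± 0.42, adjusted p = 1.3e-06). The change of *trn* against control was -7.32 (4 weeks), -7.54 (8 weeks) and -4.84 (14 weeks), and it, like every other gene, did not pass the test among ages after adjustment. *drl*, a Wnt5 receptor gene, fell by 7.19, *Sema2b*, a secreted semaphorin, by 5.71 and *Dscam1*, the highly spliced cell surface receptor, by 5.17. Removal of the length trend left 14 of the 29 lower and made 2 higher.

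Synaptic vesicle genes had 10 of 17 lower and 2 higher. *Syt4*, a postsynaptic synaptotagmin, was at 0, 0.0445 and 0.271 CPM in tumours, against 177, 78.9 and 181 CPM in controls (-7.00 ± 0.43, adjusted p = 9.4e-07), and *nSyb*, neuronal synaptobrevin, fell by 4.88. The synaptic increases numbered 0 without Control 1, Control 2 or the second 8-week tumour and 1 without Control 3 or the first 8-week tumour, and the list had 3 higher and 8 lower with the length trend removed. Dpr and DIP surface proteins, which pair synaptic partners, had 12 of 17 lower and 2 higher, and 1 higher without any one control, the first 4-week or the second 8-week tumour. Removal of the length trend and quantile normalization each left 7 lower. An exception was *dpr18*, at 49.3, 91.2 and 117 CPM in tumours, against 8.23, 10.9 and 9.09 CPM in controls (2.98, adjusted p = 3.1e-05), where the controls were close together and all tumours lay above them. Members such as *dpr12* were at 0, 0 and 0.135 CPM in tumours, against 53.3, 26.8 and 55.3 CPM in controls (-5.43). Of 12 glial genes 9 were lower and none higher. *repo*, the homeobox gene of nearly all glia, was at 0.0445, 0.213 and 0.485 CPM in tumours, against 12.5, 10.9 and 12.1 CPM in controls (-3.38 ± 0.37, adjusted p = 3.1e-05), and *wrapper*, a glial adhesion gene, had no read in any tumour and was at least 370-fold lower. Odorant, gustatory and ionotropic receptors and odorant binding proteins were mostly too low to test (36 of 237 passed), with 2 higher, 1 in 6 of the 9 fits that left out a library (all but those without Control 1, the first 14-week or the second 4-week tumour), and 9 lower. Quantile normalization reversed this, with 9 higher and 2 lower.

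Signalling genes were mostly lower where they were called, but several ligand genes rose. The length correction reduced the losses in most pathways. Wnt genes had 2 of 24 higher, both ligands, and 9 lower. The ligand gene *wg*, a key member of the list, was not matched and so not analysed. *Wnt4* was at 105, 321 and 421 CPM in the lowest, median and highest tumour, against 31.8, 2.47 and 4.69 CPM in controls (4.93 ± 0.56, adjusted p = 4.2e-05). *Wnt6*, another ligand from the same gene cluster on chromosome 2L, was at 43.7, 82.4 and 102 CPM in tumours, against 14.5, 28.1 and 14.3 CPM in controls (2.02 ± 0.34, adjusted p = 8.8e-04). In contrast, the receptor gene *fz2* was at 0.859, 6.88 and 10.2 CPM in tumours, against 101, 156 and 125 CPM in controls (-4.34 ± 0.39, adjusted p = 9.6e-06), and the co-receptor gene *arr* fell by 1.91. Without the first 14-week tumour, or with CPM of total reads, 14 Wnt genes were lower, and with the length trend removed 3 were higher and 5 lower.

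Notch pathway genes had 4 of 24 higher and 12 lower (5 and 11 with the length trend removed). The members of the *E(spl)* complex, the direct targets of Notch, did not move together. *E(spl)mbeta-HLH* was at 257, 331 and 1036 CPM in tumours, against 105, 77.9 and 78.4 CPM in controls (2.30 ± 0.41, adjusted p = 0.0012), and *E(spl)mgamma-HLH* (2.27) and *E(spl)m3-HLH* (1.96) were higher as well. *E(spl)m8-HLH*, in the same complex on chromosome 3R, was at 0, 0.0204 and 0.485 CPM in tumours, against 23.9, 21.2 and 21.8 CPM in controls (-4.42 ± 0.37, adjusted p = 5.6e-06). The Bearded genes *Tom*, *Brd* and *Ocho*, neighbours on chromosome 3L between 14969344 and 14976040 (BDGP6), were all lower, *Tom* by 5.13 and *Brd* by 4.82, and *Ocho* had no read in any tumour and was at least 893-fold lower. *Delta*, a Notch ligand, was at 16.4, 23.3 and 46.1 CPM in tumours, against 114, 95.4 and 123 CPM in controls (-2.15 ± 0.31, adjusted p = 2.4e-04). *Ser*, the other ligand, was at 57.8, 118 and 178 CPM in tumours, against 40.0, 70.8 and 26.9 CPM in controls (1.34 ± 0.36, adjusted p = 0.012), a call that was lost without Control 1 or Control 3 (adjusted p = 0.062 to 0.084).

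JAK/STAT held a ligand gene that rose and a kinase gene that fell. *upd3*, a cytokine gene, was at 13.6, 32.1 and 73 CPM in tumours, against 7.84, 5.87 and 6.65 CPM in controls (2.07 ± 0.44, adjusted p = 0.0036), so that every tumour exceeded every control. *upd2*, its neighbour on the X chromosome, was at 15, 23.2 and 46.5 CPM in tumours, against 14.9, 1.92 and 21.9 CPM in controls (1.34 ± 0.61, adjusted p = 0.099), and passed after quantile normalization (1.89, adjusted p = 0.045), with limma-voom (2.09, adjusted p = 0.048) and with the length trend removed (1.57, adjusted p = 0.047). The kinase gene *hop* was at 4.87, 12.5 and 19.2 CPM in tumours, against 80.4, 42.1 and 34.2 CPM in controls (-1.95 ± 0.44, adjusted p = 0.0050), which did not pass with the length trend removed (-1.05, adjusted p = 0.072). *Stat92E*, the transcription factor, and *Socs36E*, a target and inhibitor, had log2 changes of -0.45 (adjusted p = 0.26) and 0.22 (adjusted p = 0.59), and *Socs36E* passed with the length trend removed (1.08, adjusted p = 0.013). Over the pathway 1 of 12 genes was higher and 2 were lower, and 4 were higher and none lower with the length trend removed. Without any one control, the second 4-week tumour, either 8-week tumour or the second 14-week tumour 1 was lower.

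Genes of receptor tyrosine kinases and of their ligands were among the most reduced signalling genes. Outside the EGFR pathway the list held receptors, ligands and an adaptor, and the receptor genes *btl* and *InR* were not matched. Of 15 tested 13 were lower, with a median change of -2.49, and 1 was higher (9 and 1 with the length trend removed). That gene was *bnl*, the FGF ligand that guides tracheal growth, at 13.5, 38.1 and 79.8 CPM in tumours, against 2.35, 3.86 and 5.31 CPM in controls (3.03 ± 0.48, adjusted p = 5.6e-04). Another FGF ligand gene, *ths*, was at 0, 0.0202 and 0.404 CPM in tumours, against 45.1, 31.0 and 77.3 CPM in controls (-5.49 ± 0.42, adjusted p = 3.3e-06), and its receptor gene *htl* fell by 3.95. *Pvr*, the PDGF/VEGF receptor gene, was at 0, 1.31 and 8.77 CPM in tumours, against 65.9, 30.9 and 39.7 CPM in controls (-4.17 ± 0.45, adjusted p = 2.8e-05). In the EGFR pathway 12 of 23 genes were lower, 7 with the length trend removed, when 3 were higher. *Egfr* itself was at 14.9, 24.6 and 45.8 CPM in tumours, against 122, 224 and 147 CPM in controls (-2.56 ± 0.38, adjusted p = 3.4e-04), and *aos*, a secreted inhibitor and target, fell by 2.64. The genes of the rhomboid proteases *ru* (-7.74) and *stet* (-4.24), which release ligands, were lower too. The ligand gene *vn* was the exception (1.07, adjusted p = 0.034), and its call was lost in 6 of the 9 fits that left out a library (adjusted p = 0.051 to 0.14), those without Control 1, Control 3 or any of the 4- and 8-week tumours.

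Among Hedgehog and Dpp pathway genes the calls were decreases, but increases appeared with the length trend removed or without the second 14-week tumour. *hh*, the ligand gene, was at 1.78, 7.23 and 13.2 CPM in tumours, against 35.3, 37.3 and 51.3 CPM in controls (-2.56 ± 0.47, adjusted p = 0.0015). *shf*, which helps the ligand spread, fell by 4.18 and *boi*, a co-receptor gene, by 2.18. Over the Hedgehog list 6 of 12 genes were lower, and 3 without Control 2, Control 3 or the first 8-week tumour. The counts were 1 higher and 3 lower with the length trend removed, and 1 gene was higher without the second 14-week tumour. Of 22 Dpp and TGF-beta genes 11 were lower and none higher, with a median of -0.79. With the length trend removed 6 were lower and 5 higher, with a median of -0.01, and without the second 14-week tumour 1 was higher. *dpp* was at 49.0, 82.9 and 132 CPM in tumours, against 73.3, 80.9 and 45 CPM in controls (0.32 ± 0.32, adjusted p = 0.44), and *Dad*, a target and inhibitor, had a change of 0.40 (adjusted p = 0.20). Both were higher with the length trend removed (*dpp* 1.18, adjusted p = 0.0036, and *Dad* 1.29, adjusted p = 3.9e-04). *brk*, the repressor of Dpp targets, was at 2.14, 9.76 and 17.1 CPM in tumours, against 60.0, 57.5 and 48.1 CPM in controls (-2.58 ± 0.46, adjusted p = 0.0013). *Actbeta*, an activin ligand gene of neurons, fell by 5.11, and *magu*, a secreted modulator, by 5.98.

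**Figure D3:**
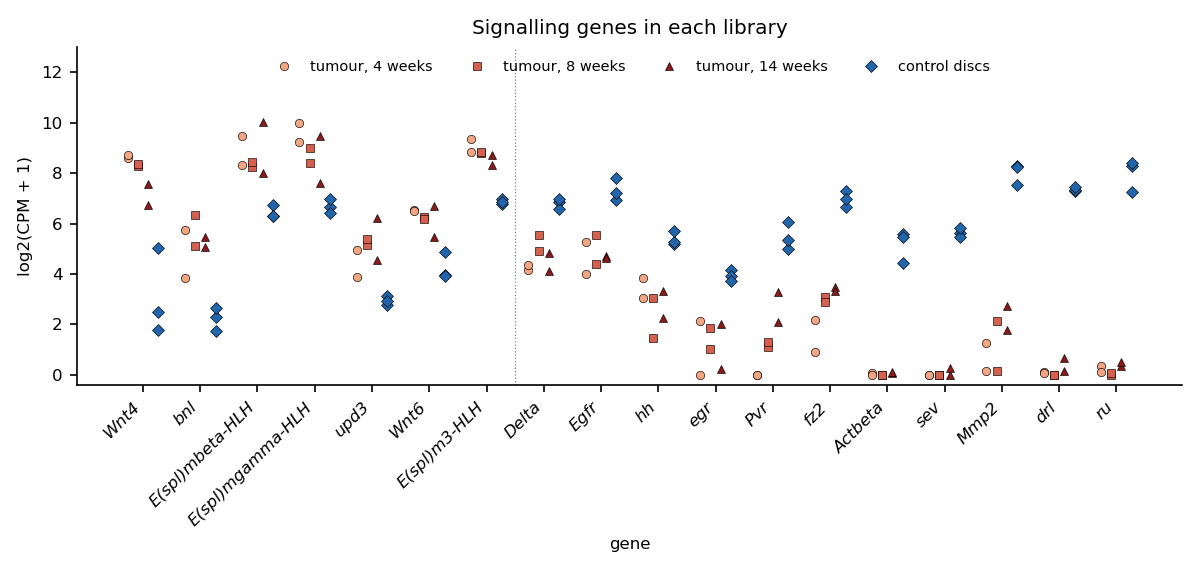
Levels of signalling genes as log2(CPM + 1), 1 point per library, with the 4-, 8- and 14-week tumours and then the controls from left to right in each gene. The genes left of the dotted line rose in tumours and those right of it fell, and for *Wnt4*, *bnl* and *upd3* every tumour lay above every control.

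The JNK and Hippo lists held more decreases than increases, as did the genes tested as a whole. The share of JNK genes that were lower was close to that of all genes tested, and the share of Hippo genes was above it. *Mmp2*, a matrix metalloproteinase gene, was at 0.121, 1.91 and 5.57 CPM in tumours, against 312, 184 and 298 CPM in controls (-6.65 ± 0.52, adjusted p = 3.4e-06). *Mmp1*, its secreted relative, was at 93.9, 152 and 231 CPM in tumours, against 534, 131 and 299 CPM in controls (-0.90 ± 0.38, adjusted p = 0.079), and passed the test without Control 2 (-1.44, adjusted p = 0.012). The JNK target *puc* was at 118, 177 and 220 CPM in tumours, against 420, 83.2 and 163 CPM in controls (-0.10, adjusted p = 0.86). The controls thus spread more widely than the tumours in both. The TNF ligand gene *egr* fell by 2.73. Of 22 JNK and invasion genes 6 were lower and 1 was higher, *Irbp18*, a bZIP gene (1.51), which did not pass with the length trend removed (0.69, adjusted p = 0.067). Without Control 1 or the first 14-week tumour 2 of them were higher, and 3 without the first 4-week tumour, and with the length trend removed 5 were higher and 6 lower. Of 20 Hippo genes 9 were lower, 4 without Control 1 or Control 3, and 1 was higher (4 higher and 7 lower with the length trend removed). That gene was *Myc*, a growth regulator, at 398, 519 and 831 CPM in tumours, against 188, 389 and 302 CPM in controls (0.99 ± 0.32, adjusted p = 0.028, and 1.86, adjusted p = 1.4e-04, with the length trend removed), whose call was lost without Control 1, Control 3, the first 4-week or the second 8-week tumour (adjusted p = 0.053 to 0.15), on total-read CPM (0.67, adjusted p = 0.19) and after quantile normalization (0.65, adjusted p = 0.15). The losses included *fj*, a Golgi kinase gene, at 10.1, 28.7 and 53.3 CPM in tumours, against 155, 216 and 249 CPM in controls (-2.84 ± 0.31, adjusted p = 3.1e-05), and the Yorkie target *ex* (-1.54).

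Genes of the Polycomb group itself changed in part. *ph-p* and *ph-d*, the genes hit by *ph505*, had log2 changes of 0.72 (adjusted p = 0.067) and 0.26 (adjusted p = 0.53). Both were higher with the length trend removed (*ph-p* 1.61, adjusted p = 3.6e-04, and *ph-d* 1.15, adjusted p = 0.0033), and *ph-p* also without the first 14-week or the second 4-week tumour (adjusted p = 0.025 to 0.049) and with all 12 samples in the fit (adjusted p = 0.041). Since the sources used here do not say whether the allele lowers their RNA, these values do not check the labels. *Psc*, a partner subunit of Polyhomeotic, was at 221, 319 and 830 CPM in the lowest, median and highest tumour, against 75.7, 76.6 and 81.1 CPM in controls (2.20 ± 0.34, adjusted p = 4.9e-04). *Su(z)2*, the paralogue of *Psc* next to it on chromosome 2R, was at 103, 156 and 236 CPM in tumours, against 14.1, 18 and 15.8 CPM in controls (3.28 ± 0.28, adjusted p = 6.0e-06). The tumours did not overlap the controls in either gene, and both stayed higher with the length trend removed (3.08 and 4.15). *esc*, a subunit of the histone methyltransferase complex, rose by 1.37. Over the list 4 of 23 genes were higher and 6 lower. The decreases did not hold, with 2 to 3 lower in the fits without any one control, the second 4-week tumour or either 8-week tumour, and 6 higher and none lower with the length trend removed.

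The families with the most increases were those of protein synthesis and mitochondrial respiration. Of 80 cytosolic ribosomal protein genes 57 were higher and 1 lower, with a median change of 1.30. Their summed level was 49635 to 263706 CPM in tumours, against 33117, 44998 and 36833 CPM in Controls 1, 2 and 3. The lowest tumour sum was above the highest control sum, and the highest came from the second 14-week tumour, the library with the lowest scaling factor (0.611). Sums were not made with CPM of total reads. An example is *RpS13*, at 1578, 2688 and 5692 CPM in tumours, against 521, 1068 and 1111 CPM in controls (1.67 ± 0.40, adjusted p = 0.0074). Increases were spread over both subunits, 31 of 47 large subunit genes and 26 of 33 small subunit genes. The gene that fell was *RpS5b*, a copy used in the ovary, at 0 to 1.01 CPM in tumours, against 18.8, 103 and 14.0 CPM in controls (-4.58). The count rested on single libraries and on transcript length. It was 1 higher without Control 1, 6 without Control 3, 20 without the first 8-week tumour, 33 without Control 2 and 35 without the second 4-week tumour, 34 after quantile normalization, and 13 with the length trend removed, when the median change was 0.53 and *RpS13* was no longer called (0.85, adjusted p = 0.059). *RpS13* also lost its call without Control 1 (1.31, adjusted p = 0.060). These transcripts are short, and reads from near-identical copies could have been split between genes by the counting.

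Of 64 nuclear genes of the respiratory chain 52 were higher and none lower, with a median change of 1.66, and their sum was 12816 to 56380 CPM in tumours, against 6942, 8935 and 7393 CPM in controls. *ATPsynD*, a subunit of ATP synthase, was at 436, 867 and 2387 CPM in tumours, against 137, 193 and 193 CPM in controls (2.33 ± 0.34, adjusted p = 2.7e-04). *COX5A*, a subunit of complex IV, rose by 2.30 and *UQCR-Q*, of complex III, by 2.53. All complexes took part, with 26 of 32 genes higher in complex I, 3 of 4 in complex II, 5 of 7 in complex III, 8 of 9 in complex IV and 10 of 12 in ATP synthase. This list depended less on length, with 44 of 64 higher and a median of 0.92 once the trend was removed. Leaving out Control 1 gave 32 higher and leaving out Control 3 gave 34. Mitochondrial ribosomal protein genes had 53 of 70 higher and none lower, with sums of 3282 to 10741 CPM in tumours, against 1925, 2374 and 2105 CPM in controls. *mRpL9* was at 39.7, 79.5 and 206 CPM in tumours, against 10.2, 25.2 and 19.6 CPM in controls (2.18 ± 0.38, adjusted p = 0.0011). The count was 24 without Control 1, 25 without Control 3, 33 without Control 2, 35 without the first 8-week tumour and 28 with the length trend removed.

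Without length correction, proteasome genes rose mainly in the core particle. Of the 15 core subunit genes 14 were higher, and of the 21 cap subunit genes 4 were higher and 1 was lower. These counts by particle were not made with the length trend removed. *Prosbeta3*, a core subunit, was at 290, 590 and 1713 CPM in tumours, against 128, 173 and 202 CPM in controls (1.91 ± 0.35, adjusted p = 0.0014). Its change was 1.22 (adjusted p = 0.0017) with the length trend removed. Sums over the list were 6118 to 14031 CPM in tumours, against 4393, 4637 and 5363 CPM in controls. Over all 36 genes 18 were higher, and 7 without Control 1, 9 without Control 2, 10 without the first 8-week tumour, 11 without Control 3, 9 with CPM of total reads and 11 with the length trend removed. In glycolysis 8 of 21 genes were higher and 2 lower. *Gapdh1* was at 573, 938 and 1282 CPM in tumours, against 247, 309 and 303 CPM in controls (1.60 ± 0.31, adjusted p = 0.0020), and *Tpi*, triosephosphate isomerase, rose by 1.70. The sugar transporter gene *Glut1*, in contrast, was at 0, 0.0409 and 1.82 CPM in tumours, against 65.5, 54.0 and 51.7 CPM in controls (-5.56 ± 0.44, adjusted p = 3.5e-06), and *fbp*, the enzyme of the reverse pathway, fell by 3.50. The glycolysis count was 3 higher without Control 1, 5 without Control 2, the second 4-week or the first 8-week tumour, 5 after quantile normalization or with CPM of total reads, and 11 with the length trend removed.

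**Figure D4:**
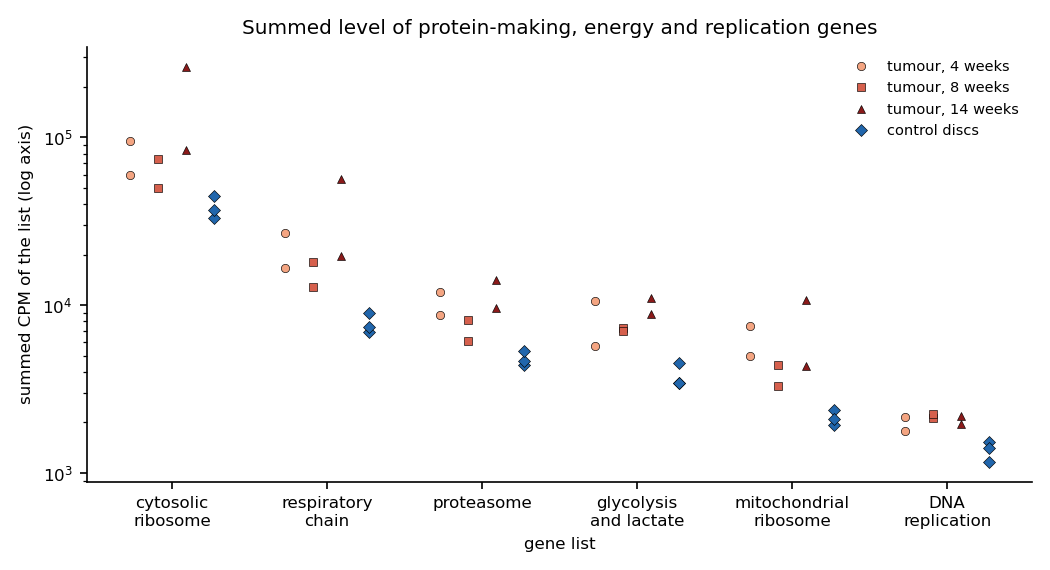
Summed CPM of 6 gene lists in each library (log axis), with the 4-, 8- and 14-week tumours and then the controls from left to right in each list. With this scaling every tumour lay above every control in each list. The highest cytosolic ribosomal protein sum, 263706 CPM, was in the second 14-week tumour. The scaling factor, which raises CPM where it is low, was 0.611 in that tumour and 1.2 to 1.239 in controls. Sums were not made with CPM of total reads.

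In the insulin and Tor list 5 of 23 genes were higher and 3 lower. *Thor*, the 4E-BP that restrains translation, was at 121, 376 and 733 CPM in tumours, against 59.2, 114 and 68.1 CPM in controls (2.22 ± 0.46, adjusted p = 0.0031). *Sdr*, a secreted decoy of the insulin receptor, was at 0.0404, 0.387 and 3.60 CPM in tumours, against 103, 170 and 199 CPM in controls (-6.37 ± 0.54, adjusted p = 5.6e-06), and *Sesn*, which restrains Tor, fell by 3.39. The list's direction depended on the scaling, with 3 higher and 7 lower with CPM of total reads and 4 and 5 after quantile normalization, and on single libraries, with 2 higher without Control 1, 3 higher without Control 3, 9 lower without the first 14-week tumour and 8 lower without the first 4-week tumour.

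The counts of cell cycle genes depended on the processing. Of 28 DNA replication genes 9 were higher and none lower. *Psf3*, a subunit of the GINS complex of the replicative helicase, was at 136, 180 and 250 CPM in tumours, against 40.0, 43.5 and 54.4 CPM in controls (1.96 ± 0.25, adjusted p = 9.9e-05). The list had 10 higher with the length trend removed, but 3 higher without Control 1, Control 3 or the first 8-week tumour, 5 without Control 2 and 4 with CPM of total reads. Cyclins, Cdks and timing genes had 4 higher and 5 lower of 23, and mitosis genes 4 higher and 2 lower of 31. With the length trend removed the mitosis list had 13 higher and 0 lower and a median of 0.55, against 0.07 without, and with CPM of total reads it had 1 higher and 3 lower. Cyclin counts were 3 higher and 2 lower with the length trend removed, 6 and 4 after quantile normalization and 0 and 5 with CPM of total reads. *stg*, the Cdc25 phosphatase gene that triggers mitosis, was at 35.7, 68.0 and 117 CPM in tumours, against 137, 322 and 360 CPM in controls (-1.88 ± 0.35, adjusted p = 0.0016). *aurB*, Aurora B kinase, was at 123, 157 and 318 CPM in tumours, against 71.3, 65.5 and 102 CPM in controls (1.11 ± 0.28, adjusted p = 0.0089), and was not called on CPM of total reads (0.79, adjusted p = 0.076). The cyclin counts fell to 1 or 2 higher and 2 to 3 lower without any one control, the second 4-week tumour or the first 8-week tumour, and to 2 higher without the second 8-week tumour, and the mitosis counts to 2 higher without Control 1, Control 2, the second 4-week or the first 8-week tumour, with 4 lower without Control 1, 0 without Control 2, Control 3 or the first 8-week tumour and 1 without either 4-week tumour.

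Apoptosis genes went both ways. *rpr*, an inducer of apoptosis, was at 22.9, 32.7 and 47.7 CPM in tumours, against 9.02, 8.80 and 12.1 CPM in controls (1.63 ± 0.33, adjusted p = 0.0027), and *p53*, its transcriptional activator after DNA damage, rose by 1.54 (adjusted p = 0.0043, and 0.095 with all 12 samples of the series in the fit). *hid*, another inducer, was at 31.0, 43.1 and 59.9 CPM in tumours, against 126, 67.0 and 49.5 CPM in controls (-0.77, adjusted p = 0.095), and the caspase gene *Strica* fell by 2.23 (adjusted p = 0.055 with all 12 samples in the fit). Over the list 2 of 16 genes were higher and 7 lower, and 3 or 4 were lower without Control 1, Control 3, the first 4-week tumour, either 8-week tumour or the second 14-week tumour, 4 after quantile normalization and 3 with the length trend removed. Heat shock protein genes had 9 of 18 lower and none higher, but the controls differed among themselves. *Hsp70Aa* was at 1.02, 4.00 and 33.6 CPM in tumours, against 358, 8.99 and 483 CPM in Controls 1, 2 and 3 (-4.30 ± 1.14, adjusted p = 0.012), so that Control 2 lay within the tumours. The call was lost without Control 1 or Control 3 (adjusted p = 0.10 to 0.11), and the list then had 1 and 2 lower, and 3 without the first 8-week tumour, while removal of the length trend gave 3 higher and 6 lower. Copies of *Hsp70* are nearly identical and were counted separately.

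Several genes of cell junctions and most cuticle genes tested were lower in tumours. Of 27 genes of apical polarity and junctions 13 were lower and 1 was higher, with a median of -0.74, and with the length trend removed 6 were lower and 2 higher, with a median of -0.08. *shg*, E-cadherin, was at 23.7, 50.8 and 89.9 CPM in tumours, against 315, 280 and 369 CPM in controls (-2.73 ± 0.25, adjusted p = 9.9e-06). *ed*, an immunoglobulin gene of adherens junctions, was at 57.9, 80.9 and 95.5 CPM in tumours, against 413, 524 and 495 CPM in controls (-2.58 ± 0.24, adjusted p = 1.2e-05). Both were lower at each age. *Gli*, Gliotactin of tricellular junctions, fell by 3.05 and *sdt*, the partner of Crumbs, by 2.42. *baz*, the fly Par-3, was the gene that rose (1.11, adjusted p = 0.0050), although its call was lost on CPM of total reads (0.79, adjusted p = 0.072). The list had 8 lower without Control 3. Basement membrane and integrin genes had 1 higher and 3 lower of 16, with *mew*, an integrin alpha subunit, lower by 2.54 and 1 lower without Control 2, and 5 without the first 14-week tumour. The increase in that list was lost without Control 1, Control 2, the first 4-week tumour or either 8-week tumour, and removal of the length trend turned the list to 3 higher and 1 lower.

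Of 21 genes of chitin synthesis and chitin binding 11 were lower and none higher. *Gasp*, a chitin-binding protein of the tracheal lumen, was at 0.890, 12.6 and 116 CPM in tumours, against 910, 1180 and 2813 CPM in controls (-6.76 ± 0.67, adjusted p = 1.7e-05), and *Cda5*, a chitin deacetylase, fell by 5.70. Cuticle protein genes had 23 of 31 tested lower (125 were listed), with a median of -2.37 (-4.43 with genes without reads in any tumour at their bound), and 14 were lower after quantile normalization. The exception was *Cpr65Ay*, at 0.121, 37.4 and 119 CPM in tumours, against 1.57, 0 and 0 CPM in controls (4.20 ± 0.92, adjusted p = 0.0043), where the lowest tumour, the first of 14 weeks, lay within the controls.

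Immune genes changed in a minority. In the peptidoglycan recognition, Toll and Imd list 7 of 23 genes were lower and 1 was higher. *Tl*, the receptor Toll, was at 0.0409, 1.46 and 9.71 CPM in tumours, against 65.9, 72.1 and 79.5 CPM in controls (-4.74 ± 0.47, adjusted p = 1.6e-05), and *spz*, its ligand gene, fell by 2.40. The count was 3 lower without Control 3 and 4 without Control 1 or the first 8-week tumour, and there were 0 higher without Control 1 or Control 2, 3 without the first 14-week and 2 without the first 4-week tumour. After quantile normalization 4 were higher and 4 lower. Of 8 antimicrobial peptide genes 1 was lower, and 5 were without the second 14-week tumour, 2 without Control 1, 0 without Control 3, 3 with CPM of total reads and 6 with the length trend removed. Their sum was 0.579 to 3.79 CPM in the other 5 tumours and 96.5 CPM in that one, against 17.6, 23.7 and 63.7 CPM in controls. Detoxification enzymes were split. Of 40 glutathione transferase and UDP-glycosyltransferase genes 10 were higher and 11 lower (14 and 6 after quantile normalization, 6 and 10 with the length trend removed, 13 and 9 without the first 14-week tumour, and 6 higher without Control 1). *GstD9* was at 272, 278 and 745 CPM in tumours, against 63.1, 21.2 and 18.1 CPM in controls (3.64 ± 0.44, adjusted p = 7.5e-05). *GstZ2* was at 0, 0.0202 and 0.0445 CPM in tumours, against 60.0, 29.6 and 60.1 CPM in controls (-5.57 ± 0.41, adjusted p = 2.5e-06). Cytochrome P450 genes had 1 of 40 higher and 5 lower, with 8 lower without Control 3, 2 higher without either 4-week or the first 14-week tumour, and 3 higher and 3 lower after quantile normalization.

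Among germline and piRNA genes 2 of 23 were higher and 6 lower. *mael* was at 108, 136 and 197 CPM in tumours, against 11.4, 16.5 and 0 CPM in controls (4.56 ± 0.71, adjusted p = 4.7e-04), and *zuc*, the nuclease that trims piRNA precursors, was at 25.6, 37.7 and 51.6 CPM in tumours, against 3.92, 10.5 and 7.22 CPM in controls (2.33 ± 0.38, adjusted p = 6.9e-04). Both exceeded all controls in every tumour, and 4 genes were higher without the second 14-week tumour. The decreases rested on the controls, since *osk*, the posterior determinant of the egg, was at 0 to 1.56 CPM in tumours, against 20.0, 531 and 0.143 CPM in controls (-4.24, adjusted p = 0.027, and adjusted p = 0.051 to 0.14 in the fits without Control 1, Control 2, the second 4-week tumour or either 8-week tumour). The list had 1 lower without Control 2, 2 without Control 1, the second 4-week tumour or either 8-week tumour, and 10 without Control 3. It turned to 4 higher and 2 lower with the length trend removed and to 3 and 2 after quantile normalization.

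Genes of sexual identity and dosage compensation had 2 of 14 higher and 5 lower. *fru*, a BTB zinc finger gene of the sex determination pathway, was at 568, 697 and 819 CPM in tumours, against 156, 437 and 229 CPM in controls (1.46 ± 0.34, adjusted p = 0.0063). *msl-2*, the male-specific subunit of the dosage compensation complex, was at 2.18, 9.57 and 30.5 CPM in tumours, against 41.6, 89.2 and 32.7 CPM in controls (-2.20 ± 0.48, adjusted p = 0.0044). The RNAs of that complex divided the controls. *lncRNA:roX1* was at 0.364, 1.68 and 8.26 CPM in tumours, against 1174, 3176 and 1.67 CPM in Controls 1, 2 and 3, and *lncRNA:roX2* at 0.0557, 0.128 and 1.5 CPM in tumours, against 248, 388 and 0.239 CPM. Control 3 lay within the tumours in both, and both calls were lost without Control 1 or Control 2 (adjusted p = 0.11 to 0.12). The list then had 1 lower, and 3 were lower with the length trend removed. Clones on the X chromosome need a heterozygous animal, so the tumours came from females, while the sex of the control discs is not given, and its part in the result was not tested.

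Genes of chromosome 4, a small chromosome rich in heterochromatin, stood out by position, a feature picked with the values in view. Of 94 genes tested there 53 (56.4%) were lower and 5 (5.32%) higher, with a median log2 change of -1.01, against -0.19 for the other genes tested. On the other arms 22.0% to 25.7% were lower. *toy*, *ey*, *Actbeta* and the titin-like *bt* (-3.63) were among them, and *fd102C* was among those that rose. For each library, the level of the 71 genes with a mean of at least 10 CPM in controls was set against the control mean. The median was -1.33, -1.98, -0.78, -0.47, -0.69 and -1.38 in the 6 tumours from 4 to 14 weeks, against -0.04, -0.19 and 0.24 in the controls, and the medians of the other arms ran between -0.47 and 0.11. In each tumour chromosome 4 had the lowest median, under a filter and a reference shared by all arms. Every tumour was also below every control there. The genes were picked by their control level and the controls set the zero, which favours low tumour values. That separation is therefore not a test. The 5 higher became 2 or 3 without Control 1, Control 3, either 4-week tumour, either 8-week tumour or the second 14-week tumour. Removal of the length trend reduced the difference, to 30 lower and 10 higher and a median of -0.42, against 0.05 for the rest. In the settings tried the median of chromosome 4 stayed 0.47 to 1.07 below that of the other genes. The number of copies of the chromosome was not measured, and its part in the result was not tested.

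**Figure D5:**
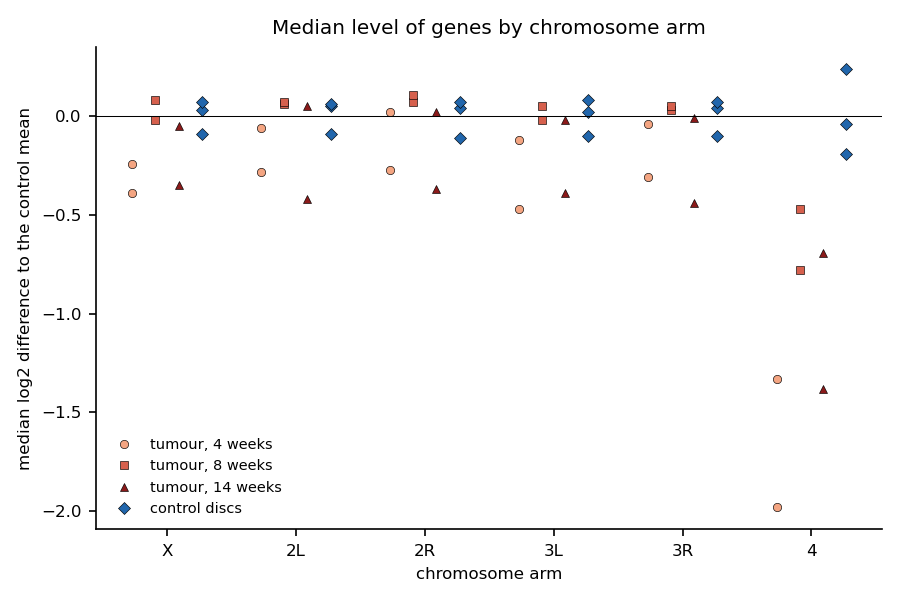
Median log2 ratio to the control mean for the genes of each chromosome arm, 1 point per library, with the 4-, 8- and 14-week tumours and then the controls from left to right in each arm. On chromosome 4 the tumours lay between -1.98 and -0.47 and the controls between -0.19 and 0.24, while on the other arms no median was below -0.47. Genes had a mean of at least 10 CPM in controls, and the control mean set the zero.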

How the data were processed

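RNA was extracted from whole pieces of tissue, and polyA RNA was amplified by SMART-Seq2 and made into Nextera XT libraries. The authors aligned reads with TopHat2 2.0.12 and Bowtie2 2.2.3 to dm6, and the deposited values are log2 CPM that they computed with edgeR 3.16.5 in R 3.3.1, with a prior count that averaged 2.0. The counter, its annotation and its use of strand are not given in the sources used here, so overlapping genes cannot be told apart. The table held 17521 genes, of which 306 had no symbol. Whole reads and linear CPM were recovered from the deposited log2 values, and 100.0% of values came out whole within 0.05 reads. Because the table holds normalized log2 values, limma was used.

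Genes with at least 1 CPM in at least 2 of the 9 samples (9345) were tested with limma 3.58.1 (R 4.3.3, moderated test with trend) on log2(CPM + 1), which understates changes of low genes. The fit had 4 groups and 5 residual degrees of freedom, and the mean of the 3 ages was compared with control at a Benjamini-Hochberg adjusted p of 0.05. A fold change is given as log2 ± SE, and levels in CPM are not corrected for length. For the length correction (9125 genes) a lowess curve (span 0.3) on transcript length was subtracted from each library. Where no tumour had a read, the lower bound of a fold is the reads pooled over controls against a floor of 3 reads pooled over the tumours, which covers counting error only. On simulated data with 200 genes changed by 2 on the log2 scale, the fit called 99% of them in the tumour comparison (9000 genes tested). All simulated libraries shared a single profile and a fixed dispersion, without a length trend or a deviating library. The simulation thus checks that the fit runs correctly and does not measure its power in these data.

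Outside the *Hox* and ecdysone lists, the genes named are the 15 most increased and the 15 most decreased among called genes with a symbol, no overlap between groups and a mean of at least 10 CPM in the higher group. Further named genes are up to 4 called members per list and direction, key members of a list, and any member of a list with at most 12 tested. The members and the 58 lists used were chosen with earlier results of these data known. The pattern for cytochrome P450 genes was narrowed after values were seen, because it had matched a cyclophilin. Alternatives covered scaling, the pseudocount (0.1), the filter (5 CPM or none), the model, the threshold, transcript length, the replicate block and each library left out. Tables and figures were made with matplotlib 3.10.9, numpy 2.4.6 and pandas 2.3.3 under Python 3.11.15. Coordinates are those of BDGP6.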

Additional observations from a re-analysis of the deposited data

Results flagged for a closer look

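Among the 6 tumours, the highest or the lowest sample lay far from the others in 10 of the 153 genes and list sums looked at (the gap to the nearest tumour over the range, on a log2 scale, exceeded Dixon's critical value of 0.625). Chance alone gives about 1 in 20. The second 14-week tumour was apart in 4 of them. It had 2620 CPM of *UQCR-Q*, against 297 to 632 CPM in the other tumours, and 39.3 CPM of *tin*, against 83.5 to 118 CPM. It also had a Hedgehog pathway sum of 837 CPM, against 1256 to 1508 CPM in the other tumours, and an antimicrobial peptide sum of 96.5 CPM, against 0.579 to 3.79 CPM. The second 4-week tumour had 318 CPM of *aurB*, against 123 to 173 CPM in the others, 25.8 CPM of *vg*, against 35.8 to 40.6 CPM, and a basement membrane and integrin sum of 894 CPM, against 1460 to 1826 CPM. The first 4-week tumour had 61.8 CPM of *CG15269*, against 20.0 to 29.3 CPM. The first 14-week tumour had 0.121 CPM of *Cpr65Ay*, against 21.7 to 119 CPM. The second 8-week tumour had a sum of gap, head gap and terminal genes of 384 CPM, against 228 to 272 CPM. Causes of these differences were not tested.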

How the results depend on the processing

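The number of genes higher in tumours was 1455, and it was 860 with CPM of total reads and 672 at an adjusted p of 0.01, where 1342 of the 2255 were lower. Leaving out each library in turn gave 719 to 1778 higher and 1628 to 2538 lower. Replicate numbers did not pair the tumours, since the deviations of same-numbered tumours correlated at -0.20 (8 and 14 weeks), -0.11 (4 and 8 weeks) and 0.28 (4 and 14 weeks). With the replicate number as a block, 832 genes were higher and 1600 lower. Control 3 has a number of its own and adds nothing to the comparison in that fit. Crossing the 8-week numbers, which was chosen after seeing the data, gave 1150 higher and 1774 lower. In the other settings the counts stayed within 1.5 times, at 1104 to 2084 higher and 1513 to 2585 lower. Of 152 called genes named in the text and followed through the alternatives, 137 kept their call in every one. The other 15 lost it in at least 1 alternative that leaves out no library, 8 of them also with a library left out. None of these 152 genes changed sign. Depth limits Control 1 most, where 1 read is worth 0.392 CPM, so that low levels there are coarse.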

Other observations

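Some genes that moved by at least 2 on the log2 scale followed each other among the tested genes of a chromosome. Genes that were not tested could lie between them. *CG30195*, *CG34446*, *CG34445* and *CG3746*, on chromosome 2R between 22646616 and 22649750 (BDGP6), were all higher in tumours, by 2.65, 3.70, 3.38 and 3.89. *nerfin-1*, *Glut1* and *aln*, on chromosome 3L between 909112 and 995703, were all lower, with log2 changes of -6.83, -5.56 and -3.51. *CG14984*, *CG12605* and *scrt*, on chromosome 3L between 3951193 and 3994003, were lower as well, with changes of -2.40, -3.13 and -7.94. These runs were picked after their values had been seen, and whether neighbours moved together more often than other genes was not tested.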
